A study of Mus musculus with 6 samples.

Results

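Lysosome and autophagy genes were followed in neural stem and progenitor cells (NSPCs) of the mouse that had been treated with a pro-oxidant or an antioxidant. The group holds 36 genes out of 17254 with reads in at least 1 of 6 RNA-seq libraries. They were chosen by what their proteins do, but with earlier results of these data known. Of these, 22 belong to the lysosome and its control and 14 to the building of autophagosomes. Expression was measured as an expected count, an estimate of the reads of a gene that need not be a whole number, and as FPKM, the reads per length of transcript and per size of library. The NSPCs came from a neonate-derived, immortalized Ink/Arf-/- culture of the subventricular zone, grown in N2 medium with EGF and bFGF, and described as a mixture of quiescent and activated stem cells, neuronal precursors and oligodendroglial progenitors. Labels give the knockout and the strain C57BL/6 for control replicate 1 and PQ replicate 1 and are silent on both for the other libraries. After 48 h, 2 libraries were made from mock-treated control NSPCs, 2 from NSPCs under 5 µM paraquat (PQ), which cycles with oxygen and produces superoxide, and 2 from NSPCs under 5 mM N-acetylcysteine (NAC), a thiol antioxidant. The question was how a raised or a lowered redox potential bears on the transcriptome of NSPCs.

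Totals per library were 9849392 and 10040827 expected counts in control, 10388731 and 9680436 under PQ, and 10698241 and 9907726 under NAC, in the order of replicates 1 and 2 that is kept for all values. By the labels, the libraries fall into 2 preparations. Preparation A (NucleoSpin RNA, Illumina) holds control replicate 1 and PQ replicate 1, and preparation B (TRIZOL, BGISEQ-500) holds control replicate 2, PQ replicate 2 and both NAC libraries. PQ could therefore be set against control within each preparation, but NAC only within preparation B, with 1 control library. The study's reporting summary states that the RNA-sequencing was replicated and plans sample sizes in biological replicates. Neither it nor the labels or methods say that the libraries of a group came from separate cultures. The p-values thus measure the spread between these libraries, which may be technical. In control and PQ that spread includes any difference between the preparations, and in NAC it does not. The main test had no covariate for the preparation.

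Lysosomes are acid organelles in which hydrolases break down proteins, lipids, glycans and nucleic acids brought in by endocytosis or by autophagy. In autophagy, a membrane cup closes around cytoplasm, worn organelles or protein aggregates, and the resulting autophagosome fuses with a lysosome. Many genes of both systems carry an E-box in their promoters that is bound by the related transcription factors TFEB, TFE3 and MITF, and neural stem cells rely on lysosomes and autophagy to clear protein aggregates as they leave quiescence.

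The libraries were first checked against their labels. Cdkn2a, the gene of the Ink/Arf locus, was read at 16.6 and 19.1 FPKM in control, 13.7 and 15.9 under PQ and 14.4 and 15.7 under NAC. The deleted gene thus had reads in every library. Both controls lay above all treated libraries, with a log2 fold change of -0.29 under PQ and NAC alike, not called by edgeR. The gene totals do not tell whether the reads came from the part that the deletion leaves in place. Of 10 NSPC markers, Vim, an intermediate filament gene of neural progenitors, was the most abundant at 1362.4 to 2647 FPKM, and Sox2, a transcription factor that keeps neural stem cells undifferentiated, stood at 121 to 164 FPKM. Hes5 and Prom1, which also mark neural stem cells, were absent or nearly so, with at most 0.16 FPKM in any library. Oligodendrocyte progenitor genes were present as well, with Olig1 between 320.4 and 554 FPKM, whereas Sox10 of the same list did not pass 0.04 FPKM.

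Microglia and macrophages, which are rich in lysosomal transcripts, were looked for with 11 markers. Their summed level was 3.20 and 3.03 FPKM in control, 5.90 and 5.12 under PQ and 5.92 and 4.71 under NAC, higher in all 4 treated libraries than in both controls. P2ry12, the most abundant of them by mean FPKM, read 1.52 and 1.28 FPKM in control, 2.26 and 1.90 under PQ and 3.88 and 2.63 under NAC. It rose under NAC (log2 1.18 ± 0.26, adjusted p = 0.0033), a call lost without NAC replicate 1 (0.090), and was not called under PQ (0.55 ± 0.28, adjusted p = 0.19). Cd68, itself a lysosomal membrane gene, read 1.13 and 1.01 FPKM in control, 2.63 and 1.88 under PQ and 1.33 and 1.12 under NAC. It stood above P2ry12 in PQ replicate 1 only. Cx3cr1, too low to be tested, read 0.53 and 0.54 FPKM in control, 0.64 and 0.93 under PQ and 0.51 and 0.85 under NAC. Itgam, also untested, read 0.02 and 0.04 FPKM in control, 0.08 and 0.09 under PQ and 0.09 and 0.11 under NAC. Tyrobp had no reads in any library, and Csf1r, Ptprc, Aif1, C1qa, C1qb and Trem2 had at most 3 expected counts in each. The part of these cells in the lysosomal results was not tested. In bulk RNA, a change in the number of cells of a type and a change in the RNA per cell cannot be told apart.

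Markers of other cells also differed between groups. The astrocyte markers summed to 136 and 132 FPKM in control, 165 and 176 under PQ and 113 and 112 under NAC, most of it from Gja1. By mean FPKM S100b was lowest, at 0.42 to 1.80 FPKM, but Aqp4 or Aldh1l1 read lower in every library except control replicate 2. Aqp4 read 0.79 and 0.70 FPKM in control, 0.54 and 0.83 under PQ and 2.66 and 2.56 under NAC. Its mean thus reached 1 FPKM, the minimum for a test, only through NAC, the group where it is high. Gja1 read 128 and 124, 154 and 165, and 97.7 and 96.03 FPKM. It rose under PQ (log2 0.31 ± 0.09, adjusted p = 0.020, kept in 12 of 15 alternatives) and fell under NAC (-0.43 ± 0.09, adjusted p = 0.0022, up to 0.031). Under NAC, Gfap (1.23 ± 0.21, adjusted p = 3.1e-04), Aqp4 (1.76 ± 0.22, adjusted p = 1.4e-05) and Slc1a2 (0.65 ± 0.11, adjusted p = 2.0e-04) rose in all 15 alternatives, and under PQ Aldh1l1 rose (1.17 ± 0.26, adjusted p = 0.0035, lost without PQ replicate 1 at 0.091). Neuronal markers summed to 38.0 and 35.7 FPKM in control, 33.5 and 34.7 under PQ and 65.3 and 58.5 under NAC, led by Map2, which rose under NAC (0.77 ± 0.10, adjusted p = 1.1e-05, up to 7.8e-04), while Rbfox3 had no reads. Tubb3 of the same list, too low to be tested, read 2.38 and 1.30 FPKM in control, 0.72 and 0.47 under PQ and 0.32 and 0.44 under NAC, the reverse of Map2 under NAC. Mural and mesenchymal markers summed to 5.47 and 5.75, 4.26 and 3.51, and 5.30 and 4.57 FPKM, and Col3a1, their highest, fell under PQ (-0.90 ± 0.14, adjusted p = 2.2e-04, up to 0.0078), with Pdgfrb lowest at no more than 0.02 FPKM. Acta2 of this list, untested at 1 to 21 expected counts, read 0.12 and 0.04 FPKM in control, 0.79 and 0.40 under PQ and 0.36 and 0.51 under NAC. Foxj1 led the ependymal markers with 4.34 to 6.58 FPKM while Tmem212 reached 0.27 FPKM, and endothelial markers stayed at or under 0.54 FPKM, the highest being Pecam1, with Cldn5 at no reads. Of the markers of the cultured cells, Vim fell under NAC (-0.75 ± 0.08, adjusted p = 3.8e-06, up to 7.9e-04), and Sox2 fell under PQ (-0.35 ± 0.10, adjusted p = 0.014, kept in 12 of 15) and NAC (-0.31 ± 0.10, adjusted p = 0.027, kept in 8 of 15). Olig1 rose under NAC (0.41 ± 0.12, adjusted p = 0.017, kept in 10 of 15). The part of these shifts in the results of the members was not tested.

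Members differed widely in level. Ranked by mean FPKM over the 6 libraries, Ctsd came first with 331, followed by Psap with 290.0 and Lamp1 with 255, but in both control libraries Psap (267 and 279.7) stood above Ctsd (236 and 264). Psap encodes the precursor of the saposins, which present lipids to lysosomal enzymes, and Lamp1 a major glycoprotein of the lysosomal membrane. Sqstm1 and Gabarap followed with 181 and 180.0 FPKM, so a cargo receptor and an ATG8 protein were the most abundant of the autophagy members. Ctsd lay above 98.4% of the 11717 tested genes in mean FPKM. At the other end stood Mitf with a mean of 1.44 FPKM, Ctsf with 1.19 and Ctsz with 0.563.

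**Figure D1:**
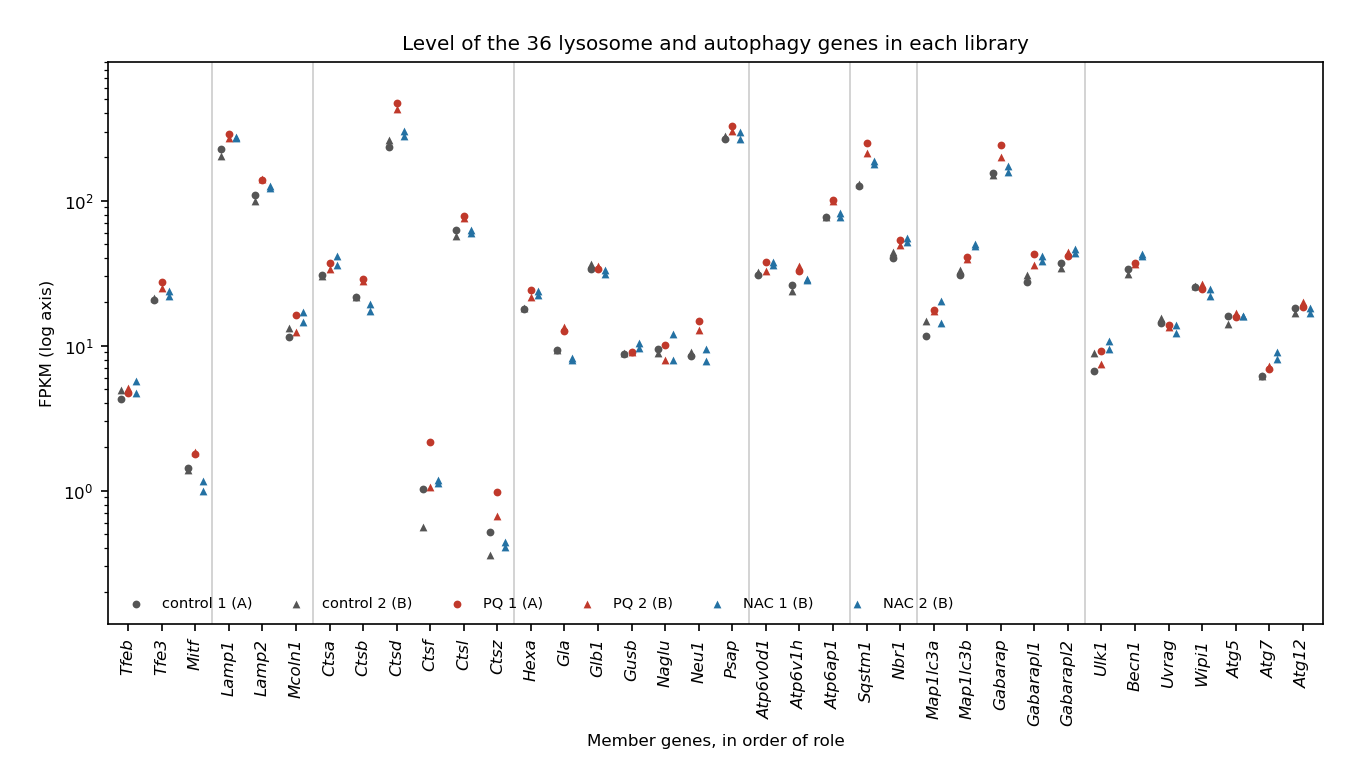
FPKM (log axis) of the 36 members in each of the 6 libraries, with grey lines between roles. Each point is 1 library, circles are preparation A and triangles preparation B, and the highest member is Psap in both control libraries (267 and 279.7 FPKM) and Ctsd in the 4 treated libraries (278 to 474 FPKM), while Ctsz does not reach 1 FPKM in any library.

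Tests compared each pair of groups with edgeR's quasi-likelihood method on rounded expected counts, for every gene whose FPKM averaged 1 or more, and a gene was called at a Benjamini-Hochberg adjusted p under 0.05. All members but Ctsz passed this filter, which left 35. Under PQ, 14 of the 35 were called higher than control, where 9.76% of all tested genes were called higher. As the members were chosen with earlier results of these data known, such comparisons with all genes describe them and are not a test. Called lower were 0 members against 9.45% of all genes, and edgeR at an unadjusted p under 0.05, DESeq2 and limma also gave 0. The median log2 fold change of the members was 0.30, with quartiles of 0.12 and 0.38, against a median of 0.00 with quartiles of -0.18 and 0.19 over all tested genes. Within preparation A the members' median log2 ratio of PQ to control was 0.28 and within preparation B 0.23, and in each preparation 30 of 35 members lay above 0.

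In NAC against control, 8 members were called higher than control, where 9.01% of all genes were, and 0 lower, where 9.64% of all genes were. For the lower direction, edgeR at an unadjusted p under 0.05 gave 4 members, and DESeq2 and limma gave 0. The members' median log2 fold change was 0.14, with quartiles of 0.00 and 0.30, against 0.00 with quartiles of -0.19 and 0.18 over all genes. Within preparation B the median log2 ratio to control replicate 2 was 0.09 for NAC replicate 1 and 0.16 for NAC replicate 2. Both comparisons use the same control libraries, so their values stand side by side and are not independent.

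The split by system was as follows. Of 21 tested lysosomal members, PQ had 10 called higher (47.6%) with a median log2 fold change of 0.31, and NAC had 2 (9.5%) with a median of 0.12, next to 9.76% and 9.01% of all tested genes. Of 14 autophagy members, PQ had 4 called higher (28.6%) with a median of 0.20, and NAC had 6 (42.9%) with a median of 0.31. Lamp1, Sqstm1, Map1lc3b and Gabarapl1 were called in both. Tfe3, Lamp2, Ctsb, Ctsd, Ctsl, Gla, Neu1, Atp6v1h, Atp6ap1 and Gabarap were called in PQ, and Ctsa, Nbr1, Becn1 and Atg7 in NAC. A call in 1 treatment and not in the other does not show that the treatments differ, and the direct test of PQ against NAC is given after the roles.

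**Figure D2:**
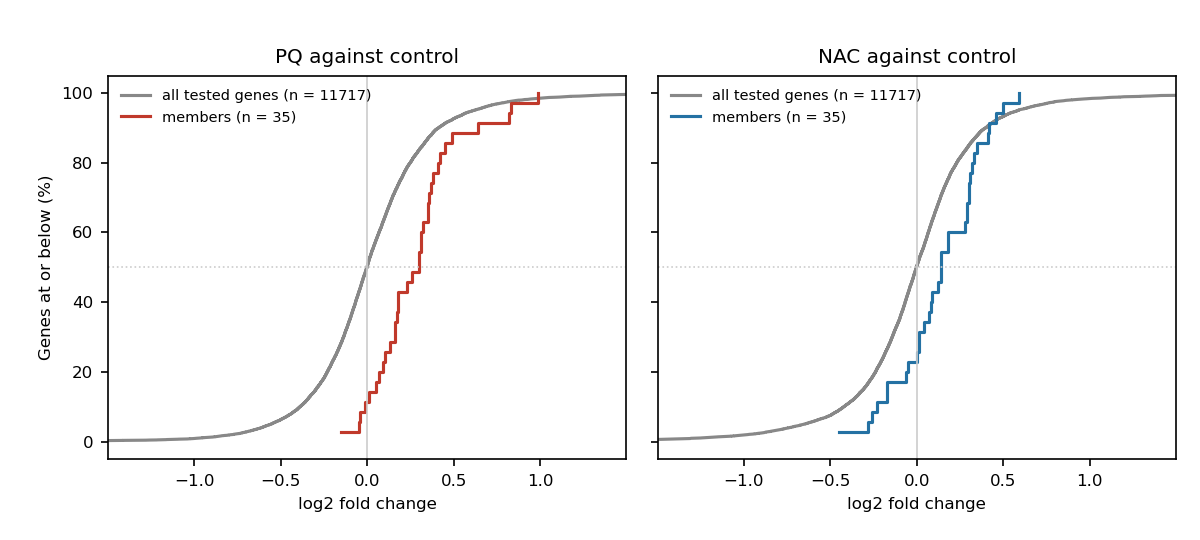
Share of genes (%) at or below each log2 fold change, for all 11717 tested genes in grey and the 35 tested members in colour, PQ against control on the left and NAC against control on the right. The members' medians lie at 0.30 and 0.14, to the right of the median of all genes at 0.00.

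**Figure D3:**
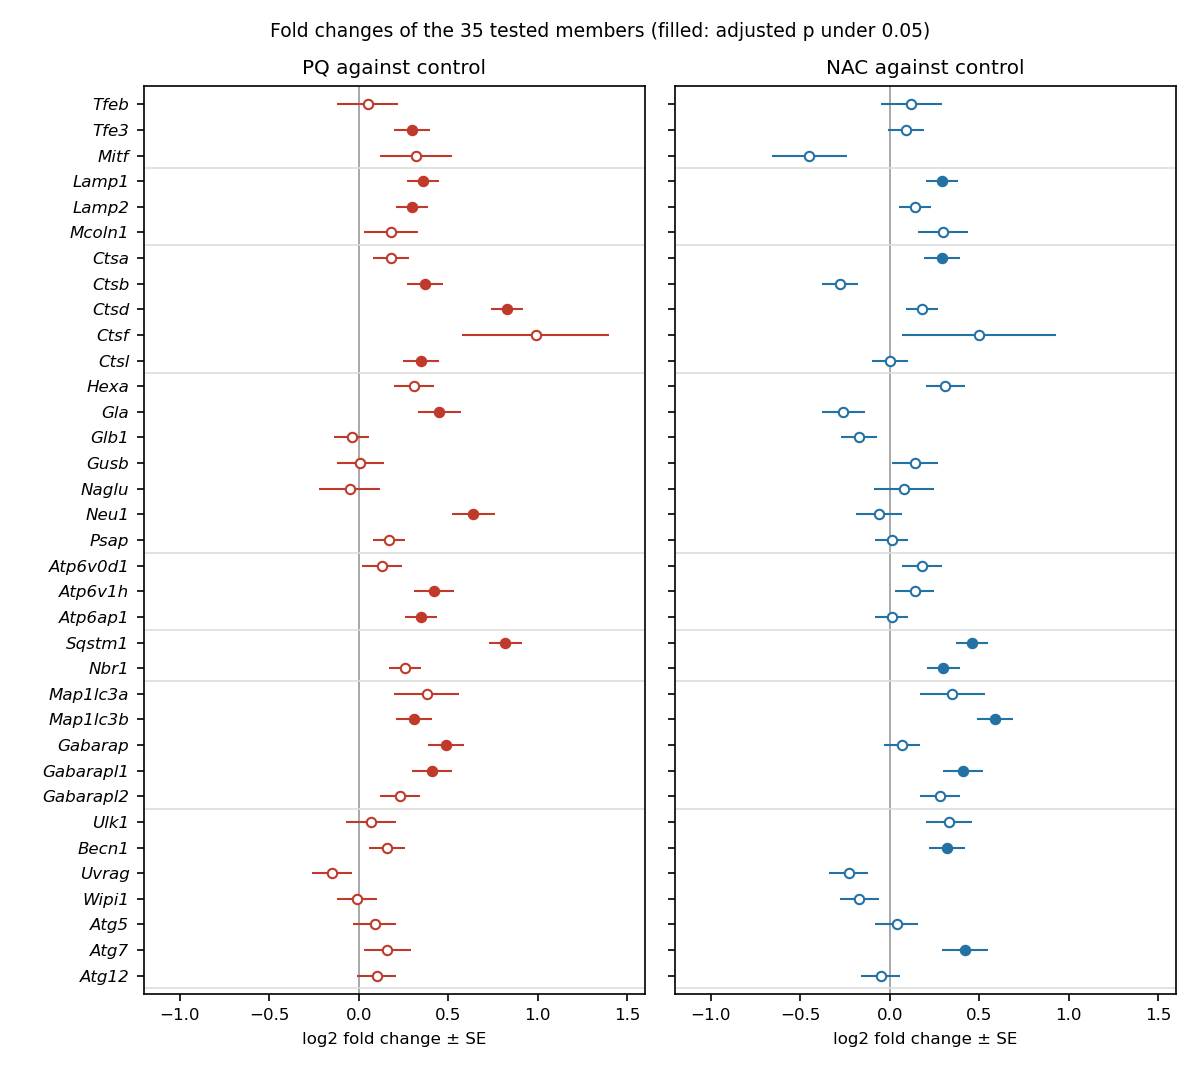
Log2 fold change with its standard error for the 35 tested members in PQ (left) and NAC (right) against control, from edgeR over all 6 libraries, in order of role from top to bottom. Filled points are called, 14 under PQ and 8 under NAC.

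Among the transcription factors, Tfe3 was the most abundant. Tfe3 read 20.6 and 21.2 FPKM in control, 27.3 and 25.1 under PQ and 23.8 and 22.2 under NAC. Both PQ libraries were above both controls and above both NAC libraries. The rise under PQ was 1.23-fold (log2 0.30 ± 0.10 SE, adjusted p = 0.041), and it ended in 9 of 15 alternatives, the labelled preparation as a covariate among them (0.062), with adjusted p from 0.04 to 0.31, the highest without PQ replicate 1. Leaving out PQ replicate 2, control replicate 1 or control replicate 2 gave 0.071, 0.11 and 0.067. Tfeb, whose protein moves to the nucleus when mTORC1 is inactive, stood at 4.31 and 4.94 FPKM in control, 4.69 and 5.08 under PQ and 4.72 and 5.69 under NAC, with overlapping groups and no call. Mitf, the factor of the melanocyte and osteoclast lineages, read 1.44 and 1.39 FPKM in control, 1.80 and 1.84 under PQ and 1.16 and 0.99 under NAC. PQ thus lay above and NAC below control without overlap, yet neither difference from control was called (adjusted p = 0.28 and 0.16), at 48 to 92 expected counts per library.

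Since these factors bind E-boxes, the promoters were searched for CACGTG and for TCACGTGA, the longer form in the middle of the CLEAR element of lysosomal genes, on both strands, which read alike because both are palindromes. Each window with the longer form also holds the shorter. The RefSeq promoter windows of GRCm38.p6 hold 31 of the 36 members, and the 250 bases before the start site were used. CACGTG was found in 11 of the 31 members (35.5%), against 10.2% of 9339 tested genes with a window and 6.86% of all 27025 genes of the table. TCACGTGA was found in 4 of the 31 (12.9%), against 1.94% and 0.907%. Among lysosomal members 9 of 20 held CACGTG, and among autophagy members 2 of 11, Atg5 and Atg7. Members called higher under PQ held it in 4 of 12 cases and the other members in 7 of 19. A match describes the letters of the window and not a site in use. Ctsb, Atp6v1h, Map1lc3a, Becn1 and Atg12 had no window in the table.

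The windows of Lamp1, Gla and Mcoln1 with several E-boxes, and the sites with the longer form in Ctsd and Ctsa, are given to show how these boxes are spaced, 5′ to 3′ on the strand of the gene, with the E-boxes in capitals. They lie at chr8:13159090-13159160 (plus strand), chrX:134601184-134601242 (minus), chr8:3500438-3500489 (plus), chr7:142387908-142387937 (minus) and chr2:164833749-164833772 (plus), upstream of the annotated start.
Lamp1: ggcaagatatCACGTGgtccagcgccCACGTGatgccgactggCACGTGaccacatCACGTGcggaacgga
Gla: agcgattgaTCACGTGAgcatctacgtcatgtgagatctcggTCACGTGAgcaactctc
Mcoln1: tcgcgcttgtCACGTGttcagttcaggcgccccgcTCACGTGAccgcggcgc
Ctsd: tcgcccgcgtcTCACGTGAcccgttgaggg
Ctsa: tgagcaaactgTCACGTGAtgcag
Lamp1 carries 4 copies of the shorter form, starting at -61, -45, -28 and -15 from its start site. Gla carries the longer form at -228 and -195, and Mcoln1 the shorter at -71 and the longer at -46. Ctsd holds a second E-box at -245, further from the start than the printed box at -99.

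**Figure D4:**
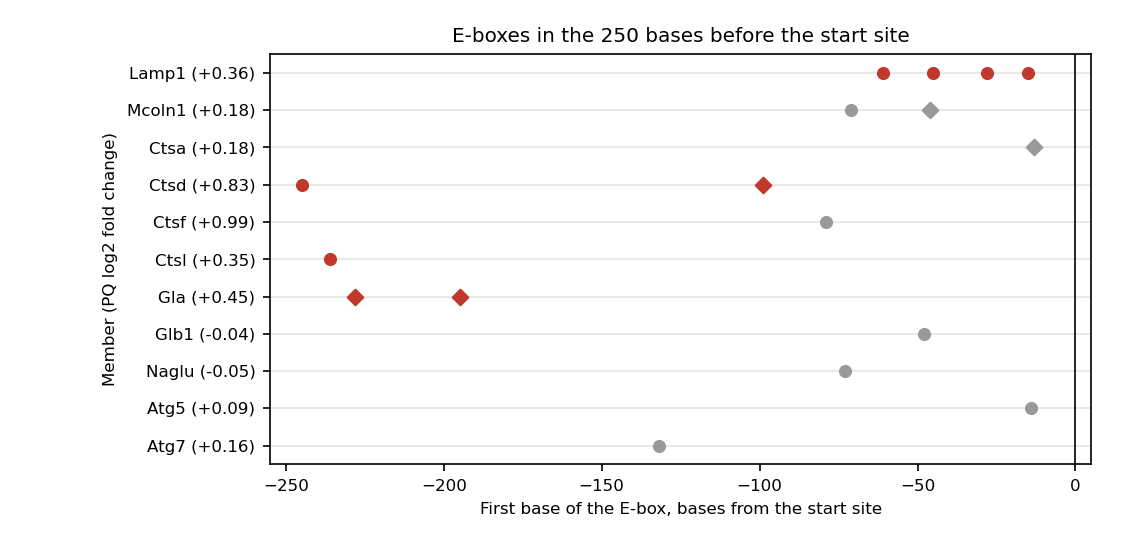
Distance of each E-box from the start site, in bases, for the 11 members that hold at least 1, with the log2 fold change in PQ against control beside each name. Circles are CACGTG, diamonds TCACGTGA, and red marks members called higher under PQ. Boxes of red members lie between -245 (Ctsd) and -15 (Lamp1), and those of grey members between -132 (Atg7) and -13 (Ctsa).

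Of the lysosomal membrane genes, Lamp1 and Lamp2 rose under PQ and Lamp1 under NAC. Lamp1 read 226 and 203 FPKM in control, 291 and 270.0 under PQ and 273 and 269.7 under NAC. All 4 treated libraries were above both controls. The rise was 1.28-fold under PQ (log2 0.36 ± 0.09, adjusted p = 0.0091) and 1.23-fold under NAC (0.29 ± 0.09, adjusted p = 0.028). Over the alternatives, adjusted p ran from 0.0017 to 0.11 for PQ, with the call lost without PQ replicate 1 (0.11) or control replicate 2 (0.076), and from 0.013 to 0.19 for NAC, with the call kept in 11 of 15 and lost without either NAC library (0.15 and 0.097) or control replicate 2 (0.19).

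Lamp2, whose splice forms serve membrane stability and chaperone-mediated autophagy, read 110.1 and 99.5 FPKM in control, 139 and 141 under PQ and 121 and 126 under NAC. Treated libraries lay above control and PQ above NAC. On counts PQ gave a 1.23-fold rise (log2 0.30 ± 0.09, adjusted p = 0.029), kept in 11 of 15 alternatives and ended without PQ replicate 1 (0.080), PQ replicate 2 (0.21) or control replicate 2 (0.18), within a range of 0.013 to 0.21. Lamp2 has 2 transcripts in the tables, and its deposited length, an average over transcripts weighted by abundance, was 3111 and 3066 bases in control, 2845 and 2971 under PQ and 3101 and 2878 under NAC. Both PQ libraries were shorter than both controls, whereas the NAC libraries fell on both sides of PQ replicate 2. Since FPKM divides by this length, the FPKM values rose by more than the counts. This range of lengths was 8.89% of the mean, larger than in 93.4% of the 2839 tested genes with several transcripts, and no test was run on it. Of the 9 members with several transcripts, Tfe3 came next with 2.07%. Mcoln1, the calcium channel of the lysosome, read 11.5 and 13.3 FPKM in control, 16.3 and 12.4 under PQ and 14.5 and 17.2 under NAC, and was not called in either comparison.

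Cathepsins, the lysosomal proteases, held the largest rise of a member under PQ that passed the test. Ctsd, an aspartic protease, read 236 and 264 FPKM in control, 474 and 428 under PQ and 278 and 305 under NAC. The PQ libraries stood far above all others, and the NAC libraries lay a little above control. PQ raised it 1.77-fold (log2 0.83 ± 0.09, adjusted p = 7.9e-06), with a log2 ratio of 0.96 within preparation A and 0.69 within preparation B, and the call held in all 15 alternatives with adjusted p up to 0.0014. Under NAC the fold was 1.13 (0.18 ± 0.09, adjusted p = 0.21). With this rise, the share of Ctsd in the summed FPKM of the 6 cathepsin members went from 66.9% and 70.6% in control to 76.3% and 75.4% under PQ, and it was 70.8% in both NAC libraries.

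Ctsb, a cysteine protease, read 21.7 and 21.6 FPKM in control, 29.0 and 28.1 under PQ and 17.4 and 19.5 under NAC. PQ libraries were the highest and NAC libraries the lowest, without overlap. The rise under PQ was 1.29-fold (log2 0.37 ± 0.10, adjusted p = 0.0099), lost without PQ replicate 1 (0.089) or PQ replicate 2 (0.054) within a range of 0.0056 to 0.089, and the log2 ratio was 0.37 within each preparation. NAC gave 0.82-fold (-0.28 ± 0.10, adjusted p = 0.051), just outside the threshold. Ctsl, a second cysteine protease, read 62.4 and 57.1 FPKM in control, 78.3 and 76.5 under PQ and 60.0 and 63.2 under NAC. PQ stood apart, while NAC and control overlapped. Its rise under PQ was 1.27-fold (0.35 ± 0.10, adjusted p = 0.015) and ended without PQ replicate 1 (0.11), PQ replicate 2 (0.080) or control replicate 2 (0.087), within a range of 0.010 to 0.11.

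Ctsa, the protective protein that stabilizes neuraminidase and beta-galactosidase, read 30.9 and 30.3 FPKM in control, 37.1 and 33.6 under PQ and 36.03 and 41.4 under NAC. Treated libraries were above control, and PQ and NAC overlapped. Its 1.22-fold difference under NAC (log2 0.29 ± 0.10, adjusted p = 0.048) had the highest adjusted p of the member calls against control and was kept in the fewest alternatives, 3 of 15, with adjusted p from 0.041 to 0.34, the highest without NAC replicate 2. It was lost with the preparation as a covariate (0.078) and without PQ replicate 1 (0.071), PQ replicate 2 (0.071), control replicate 1 (0.079) or control replicate 2 (0.11). Ctsf, at 11 to 44 expected counts per library, read 1.03 and 0.56 FPKM in control, 2.15 and 1.05 under PQ and 1.19 and 1.13 under NAC. Its log2 fold change under PQ was 0.99 with a standard error of 0.41 and an adjusted p of 0.098, so the largest estimate among members had the widest error. Without the PQ libraries its mean would lie under 1 FPKM. Ctsf was therefore tested and ranked only through the group where it is high. It was called in 3 of 15 alternatives (no filter, without PQ replicate 2 and without control replicate 1), with adjusted p from 0.037 to 0.73 and log2 values from 0.39 to 1.51. Ctsz had 5 to 14 expected counts per library and 0.52 and 0.36 FPKM in control, 0.98 and 0.67 under PQ and 0.41 and 0.44 under NAC, with the PQ libraries highest and no test.

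Of the 7 genes of glycosidases and the saposin precursor, which serve to cut sugars from glycoproteins and glycolipids, Neu1 and Gla rose under PQ. Of all tested genes, 9.76% were called higher there. Neu1, the lysosomal sialidase, read 8.44 and 8.99 FPKM in control, 14.8 and 12.9 under PQ and 7.79 and 9.55 under NAC. PQ was above all other libraries, and NAC overlapped with control. PQ raised it 1.56-fold (log2 0.64 ± 0.12, adjusted p = 0.0011), with 0.76 within preparation A and 0.51 within preparation B, and the call held in all 15 alternatives with adjusted p up to 0.032. Gla, the alpha-galactosidase that is missing in Fabry disease, read 9.40 and 9.33 FPKM in control, 12.7 and 13.4 under PQ and 7.91 and 8.20 under NAC. The 3 groups did not overlap, with NAC the lowest. Under PQ it rose 1.37-fold (0.45 ± 0.12, adjusted p = 0.012), a call lost without PQ replicate 1 (0.055) or PQ replicate 2 (0.10) within a range of 0.0089 to 0.10, and under NAC the fold was 0.83 (-0.26 ± 0.12, adjusted p = 0.15).

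Hexa, the alpha subunit of beta-hexosaminidase, read 17.9 and 18.3 FPKM in control, 24.04 and 21.5 under PQ and 22.3 and 23.96 under NAC. All treated libraries were above control, but the log2 fold change of 0.31 ± 0.11 in both comparisons did not pass in edgeR (adjusted p = 0.068 and 0.067). Of the 15 alternatives, 2 called it under NAC, both limma, with 0.043 as the lowest value. Psap, the most abundant of this role, read 267 and 279.7 FPKM in control, 326 and 300.3 under PQ and 268 and 299.8 under NAC, and was not called. The remaining glycosidases, Glb1 (beta-galactosidase), Gusb (beta-glucuronidase) and Naglu (alpha-N-acetylglucosaminidase), had log2 fold changes between -0.05 and 0.01 under PQ and were not called. Expected counts of Ctsa, Gla, Glb1 and Neu1 in every library and of Ctsb in 3 were not whole numbers, so part of their reads was shared with other genes and their levels are less certain.

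Of the 3 proton pump members, 2 rose under PQ, where 9.76% of all tested genes were called higher. The V-ATPase acidifies the lysosome, with Atp6v1h as a regulatory subunit of its cytosolic part, Atp6v0d1 as a subunit of its membrane part and Atp6ap1 as an accessory protein. Atp6v1h read 26.1 and 23.9 FPKM in control, 32.8 and 35.2 under PQ and 28.7 and 28.2 under NAC. PQ was highest and control lowest, without overlap. The rise was 1.34-fold (log2 0.42 ± 0.11, adjusted p = 0.0087) and ended without PQ replicate 2 (0.097), the highest of a range from 0.0040. Atp6ap1 read 77.6 and 77.0 FPKM in control, 101.2 and 100.2 under PQ and 77.7 and 82.8 under NAC. PQ stood apart and NAC began at the level of control. It rose 1.28-fold (0.35 ± 0.09, adjusted p = 0.0099), a call lost without PQ replicate 1 (0.079) or PQ replicate 2 (0.070), within a range of 0.0040 to 0.079. Atp6v0d1, at 30.8 to 37.6 FPKM, was not called under PQ (log2 0.13 ± 0.11) or NAC (0.18 ± 0.11).

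Cargo receptors link ubiquitin-tagged cargo to the autophagosome membrane. Sqstm1, which encodes p62 and is also a known target of NRF2, read 126 and 131 FPKM in control, 251 and 213 under PQ and 178 and 188 under NAC. The groups were ordered control, NAC, PQ without overlap. PQ raised it 1.77-fold (log2 0.82 ± 0.09, adjusted p = 9.3e-06), with 0.94 within preparation A and 0.69 within preparation B, and NAC raised it 1.38-fold (0.46 ± 0.09, adjusted p = 0.0017), with 0.41 and 0.48 for the NAC libraries within preparation B. Both calls held in all 15 alternatives, with adjusted p up to 0.0015 and 0.024. Nbr1, a second receptor, read 40.5 and 44.0 FPKM in control, 53.5 and 49.5 under PQ and 52.1 and 55.4 under NAC. Treated libraries were above control in both cases. NAC raised it 1.23-fold (0.30 ± 0.09, adjusted p = 0.027), whereas PQ gave 1.20-fold (0.26 ± 0.09, adjusted p = 0.057). The NAC call was kept in 10 of 15 alternatives. It ended with the preparation as a covariate (0.094) and without NAC replicate 1 (0.072), NAC replicate 2 (0.17) or control replicate 1 (0.13), within a range of 0.020 to 0.17, and without control replicate 2 the PQ difference passed.

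ATG8 proteins are attached to the lipids of the autophagosome membrane, where receptors dock. Gabarap read 156 and 150.3 FPKM in control, 240.5 and 199 under PQ and 159 and 174 under NAC. PQ lay far above control, and NAC replicate 1 only just above it. Its rise under PQ was 1.41-fold (log2 0.49 ± 0.10, adjusted p = 0.0021), with 0.58 within preparation A and 0.40 within preparation B, and ended without PQ replicate 1 (0.082, the highest of a range from 3.3e-05). Map1lc3b, which encodes LC3B, read 30.5 and 33.1 FPKM in control, 40.7 and 39.6 under PQ and 50.4 and 48.5 under NAC. Here NAC was the highest group and PQ lay between. NAC raised it 1.51-fold (0.59 ± 0.10, adjusted p = 2.7e-04), a call kept in all 15 alternatives with adjusted p up to 0.0063. The PQ rise of 1.24-fold (0.31 ± 0.10, adjusted p = 0.037) was kept in 7 of 15, within a range of 0.035 to 0.19. It was lost with the preparation as a covariate (0.056) and without PQ replicate 1 (0.19), PQ replicate 2 (0.13), control replicate 1 (0.17) or NAC replicate 2 (0.050).

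Gabarapl1 read 27.6 and 30.9 FPKM in control, 43.2 and 36 under PQ and 38.5 and 41.7 under NAC. Treated libraries were above control, and PQ and NAC overlapped. The rise was 1.33-fold under both, with a log2 fold change of 0.41 ± 0.11 each (adjusted p = 0.014 for PQ and 0.013 for NAC). Over the alternatives, adjusted p ran from 0.0046 to 0.23 for PQ, lost without PQ replicate 1 (0.23) or control replicate 1 (0.078), and from 0.0040 to 0.11 for NAC, lost without NAC replicate 2 (0.11) or control replicate 1 (0.076). Gabarapl2 and Map1lc3a, the remaining ATG8 genes, had log2 fold changes of 0.23 ± 0.11 and 0.38 ± 0.18 under PQ and 0.28 ± 0.11 and 0.35 ± 0.18 under NAC, and were not called by edgeR. limma called Gabarapl2 under NAC with both offsets, 2 of 15 alternatives, with 0.042 as the lowest value. By level per length, Gabarap made up 59.3% and 57.1% of the summed FPKM of the 5 genes in control, 62.7% and 59.2% under PQ and 51.9% and 52.5% under NAC, and Map1lc3b 11.6% and 12.6%, 10.6% and 11.8%, and 16.5% and 14.7%.

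Of the 7 initiation, nucleation and conjugation genes, 0 were called under PQ, where 9.76% of all tested genes were called higher and 9.45% lower. In a list of 7 genes, 0 calls is near these shares. Their log2 fold changes ran from -0.15 to 0.16. For these genes edgeR, DESeq2 and limma all gave 0, as did edgeR at an unadjusted p under 0.05. Becn1, which encodes the scaffold of the lipid kinase complex that nucleates the membrane, read 34.0 and 31.0 FPKM in control, 37.2 and 36.8 under PQ and 41.4 and 42.6 under NAC. Its groups followed the order control, PQ, NAC without overlap. NAC raised it 1.25-fold (log2 0.32 ± 0.10, adjusted p = 0.027). Atg7, the enzyme that activates ATG8 and ATG12 proteins for conjugation, read 6.17 and 6.21 FPKM in control, 6.94 and 7.27 under PQ and 8.10 and 9.06 under NAC, in the same order. It rose 1.33-fold under NAC (0.42 ± 0.13, adjusted p = 0.027). Both calls were kept in 9 of 15 alternatives, with adjusted p up to 0.15 for Becn1 and 0.20 for Atg7. They ended with the preparation as a covariate (0.052 and 0.097), without NAC replicate 1 (0.098 and 0.059), NAC replicate 2 (0.12 and 0.20) or control replicate 2 (0.15 and 0.070), and that of Atg7 also without control replicate 1 (0.068). DESeq2 also ended the NAC calls of Becn1 (0.055) and Atg7 (0.081). Ulk1 (the initiating kinase), Uvrag (a partner of Becn1), Wipi1 (a lipid-binding scaffold), Atg5 and Atg12 (parts of the conjugation complex) were not called under NAC. Ulk1 read 6.67 and 8.92 FPKM in control, 9.24 and 7.48 under PQ and 9.52 and 10.69 under NAC. Its NAC difference (log2 0.33, adjusted p = 0.10) was called in 2 of 15 alternatives, with no filter and without control replicate 2, over a range of 0.0068 to 0.55 and log2 values of 0.14 to 0.54. The other 4 differed from control by log2 values between -0.23 and 0.04.

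PQ and NAC were then compared directly. Of the 35 members, 10 were higher under PQ than under NAC, where 16.0% of all genes were, and 1 was lower, where 15.7% of all genes were. Ctsb (log2 0.65 ± 0.10, adjusted p = 4.2e-05), Ctsd (0.65 ± 0.09, adjusted p = 3.0e-05), Gla (0.71 ± 0.12, adjusted p = 1.7e-04) and Neu1 (0.70 ± 0.12, adjusted p = 2.3e-04) were the calls that held in all 15 alternatives, with adjusted p up to 0.0023, 0.0018, 0.0043 and 0.011. Mitf differed by 0.77 ± 0.20 (adjusted p = 0.0072), kept in 12 of 15 alternatives within a range of 0.0020 to 0.074, and lost without NAC replicate 2 (0.069) and with limma at both offsets (0.061 and 0.074). The lower member was Map1lc3b at -0.28 ± 0.10 (adjusted p = 0.035), kept in 8 of 15 alternatives. It was lost with DESeq2 (0.079), with the preparation as a covariate (0.13), and without NAC replicate 1, NAC replicate 2, PQ replicate 1 or PQ replicate 2 (0.18, 0.075, 0.14 and 0.15).

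Sqstm1 (0.36 ± 0.09, adjusted p = 0.0064), Gabarap (0.42 ± 0.10, adjusted p = 0.0035), Ctsl (0.35 ± 0.10, adjusted p = 0.0086), Atp6ap1 (0.35 ± 0.09, adjusted p = 0.0064) and Atp6v1h (0.28 ± 0.10, adjusted p = 0.049) made up the rest of the calls. Each of these was lost without NAC replicate 1, at adjusted p = 0.066, 0.053, 0.075, 0.071 and 0.14, and their highest values over the alternatives were 0.14, 0.11, 0.075, 0.071 and 0.29. Without PQ replicate 1 the calls of Sqstm1 (0.14), Gabarap (0.11), Ctsl (0.060) and Atp6v1h (0.079) also ended, and without PQ replicate 2 those of Ctsl (0.053), Atp6ap1 (0.052) and Atp6v1h (0.29). The preparation as a covariate ended the calls of Sqstm1 (0.052), Ctsl (0.053) and Atp6v1h (0.12), and leaving out NAC replicate 2 that of Atp6v1h (0.19). Atp6v1h was kept in 4 of 15 alternatives. Its call also ended with DESeq2 (0.11), without a filter (0.066), with filterByExpr (0.054), with the library set as a block (0.081) and with limma (0.070 and 0.073). The direct test did not call Tfe3, Lamp2, Ctsa, Nbr1, Becn1 or Atg7, each of which was called against control in 1 treatment alone, nor Lamp1 and Gabarapl1, called in both.

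Calls depended on the libraries used. Leaving out PQ replicate 1 left 4 of the 14 PQ calls, those of Ctsd, Neu1, Atp6v1h and Sqstm1, and leaving out PQ replicate 2 left 6. For NAC, leaving out NAC replicate 2 left 2 of 8, Sqstm1 and Map1lc3b, and leaving out NAC replicate 1, control replicate 1 or control replicate 2 left 4 each. With the labelled preparation as a covariate, 12 of the 14 PQ calls and 4 of the 8 NAC calls were kept. With the library set as a block (sets are given in the last section), 11 of the 14 and 4 of the 8 were kept. The block ended the PQ calls of Tfe3 (0.075), Lamp2 (0.064) and Map1lc3b (0.064). Under NAC it ended those of Lamp1 (0.058), Ctsa (0.073), Nbr1 (0.059) and Becn1 (0.052). Of PQ against NAC, 5 members were higher without NAC replicate 1 and 6 without PQ replicate 1.

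Beyond the members, 194 other genes of the same systems were followed in 11 lists, of which 180 were tested. Under PQ 35 of these were called higher (19.4%) and 4 lower (2.2%), with a median log2 fold change of 0.12, next to 9.76% and 9.45% of all tested genes. Under NAC 26 were higher (14.4%) and 7 lower (3.9%), with a median of 0.07, next to 9.01% and 9.64%. The shares of all genes are the reference for the lists that follow, which were also chosen with earlier results of these data known. E-boxes of the form CACGTG were found in 20.0% of the 155 that have a promoter window.

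Of the other V-ATPase subunits, 7 of 15 (46.7%) were called higher under PQ with a median log2 fold change of 0.33, led by Atp6v1d (log2 0.55 ± 0.13, adjusted p = 0.0055), Atp6v0b (0.51 ± 0.12, adjusted p = 0.0042) and Atp6v1e1 (0.45 ± 0.11, adjusted p = 0.0054). Atp6v1d and Atp6v1e1 encode parts of the stalks that join the cytosolic and the membrane domain, and Atp6v0b a part of the proteolipid ring. The calls of Atp6v1d and Atp6v0b held in all alternatives (adjusted p up to 0.040 and 0.048), and that of Atp6v1e1 ended without PQ replicate 1 (0.084). Without PQ replicate 1 the count was 2, and without control replicate 1 it was 4. Under NAC 0 were called, with a median of 0.05. edgeR at an unadjusted p under 0.05 gave 1 higher and 0 lower there, and DESeq2 and limma 0.

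Other lysosomal hydrolases had 12 of 34 called higher under PQ (35.3%) and 3 higher (8.8%) and 2 lower (5.9%) under NAC, with medians of 0.20 and 0.03. The 12 became 2 without PQ replicate 1, 7 without PQ replicate 2 and 6 without control replicate 1, and the 3 became 0 without NAC replicate 1 and 1 without NAC replicate 2. The 2 lower became 1 when any single library other than control replicate 2 was left out, and 3 without that one. Under PQ, Aga (log2 0.65 ± 0.17, adjusted p = 0.013), which cleaves glycoasparagines, and Manba (0.59 ± 0.16, adjusted p = 0.013), the beta-mannosidase, rose. Ppt1, named below for NAC, was also called higher under PQ (0.35 ± 0.10, adjusted p = 0.022). That call ended without PQ replicate 1, PQ replicate 2 or control replicate 2 (log2 0.37, 0.34 and 0.28). Aga lost its call without PQ replicate 2 (0.18) or control replicate 1 (0.063), and Manba without PQ replicate 1 (0.12) or control replicate 1 (0.064) and with DESeq2 (0.061). Under NAC, Hyal1, a hyaluronidase, fell from 19.6 and 23.3 FPKM in control to 11.9 and 13.5 (log2 -0.80 ± 0.12, adjusted p = 9.0e-05, up to 0.0043 in the alternatives), against 22.6 and 22.1 under PQ. Sumf1, which activates sulfatases (0.33 ± 0.11, adjusted p = 0.044), and Ppt1, a thioesterase (0.33 ± 0.10, adjusted p = 0.030), rose under NAC, but the first was kept in 4 of 15 alternatives, and the second ended without NAC replicate 1 (0.27) or control replicate 2 (0.15), with the preparation as a covariate (0.059) and with DESeq2 (0.053). Leaving out any of the 6 libraries ended the call of Sumf1, at 0.063 to 0.20.

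Among the other cathepsins, Ctsc, an aminopeptidase that activates serine proteases, went in opposite directions. It read 24.6 and 20.7 FPKM in control, 16.2 and 15.6 under PQ and 33.6 and 35.5 under NAC. No group overlapped with another. It fell under PQ (log2 -0.54 ± 0.11, adjusted p = 0.0025) and rose under NAC (0.56 ± 0.11, adjusted p = 9.3e-04), and PQ against NAC gave -1.10 ± 0.11 (adjusted p = 5.8e-07). The calls against control held in all alternatives, with adjusted p up to 0.031 and 0.015. Ctsh, another aminopeptidase, rose under PQ (0.80 ± 0.17, adjusted p = 0.0027, up to 0.028), from 5.46 and 6.04 to 10.4 and 10.1 FPKM. Under NAC, Ctso (0.39 ± 0.11, adjusted p = 0.021) and the asparaginyl protease Lgmn (0.31 ± 0.09, adjusted p = 0.021) rose, with both calls lost without NAC replicate 1 (0.078 and 0.12) or NAC replicate 2 (0.13 and 0.079), that of Ctso also without control replicate 1 (0.075) and that of Lgmn without control replicate 2 (0.068). The preparation as a covariate also ended both (0.065 and 0.067), and DESeq2 that of Ctso (0.064). The 3 called higher under NAC became 1 without either NAC library. Of the other cathepsins and legumain, 4 of 9 were tested.

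Of 3 cathepsin inhibitors, 2 were tested, and these differed from each other under NAC. The third, Cst6, too low to be tested, read 0.23 FPKM in both control libraries, 1.06 and 0.95 under PQ and 0.31 and 0.18 under NAC. Cst3, the secreted cystatin C, read 89.9 and 91.3 FPKM in control, 109 and 112 under PQ and 152 and 163 under NAC (NAC log2 0.75 ± 0.10, adjusted p = 1.8e-05, up to 5.9e-04). Cstb, the intracellular cystatin B, read 61.8 and 51.9 in control, 77.6 and 71.4 under PQ and 38.8 and 45.8 under NAC. The latter fell under NAC (-0.47 ± 0.13, adjusted p = 0.016), a call lost without NAC replicate 1 (0.18) or control replicate 1 (0.14) and with the preparation as a covariate (0.096).

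Other membrane proteins and transporters had 8 of 24 called higher under PQ (33.3%) and 6 of 24 under NAC, with medians of 0.26 and 0.14. The 8 became 0 without PQ replicate 1, 5 without PQ replicate 2 and 4 without control replicate 1. Cln3, the gene of juvenile Batten disease, read 3.46 and 4.74 FPKM in control, 7.79 and 6.17 under PQ and 7.34 and 8.93 under NAC, and Ctns, the cystine exporter of the lysosome, 2.59 and 2.97, 4.81 and 4.07, and 4.83 and 5.15. All treated libraries were above control for both. Cln3 rose under PQ (log2 0.74 ± 0.18, adjusted p = 0.0080) and NAC (0.94 ± 0.18, adjusted p = 9.3e-04), and Ctns likewise (0.65 ± 0.17, adjusted p = 0.013, and 0.80 ± 0.17, adjusted p = 0.0024). Their NAC calls held in all alternatives (up to 0.020 and 0.025), and their PQ calls ended without PQ replicate 1 (0.13 and 0.15) or control replicate 1 (0.073 and 0.079), that of Ctns also with DESeq2 (0.051). Tmem192 rose under PQ (0.63 ± 0.16, adjusted p = 0.0094, lost without PQ replicate 1 at 0.15), and the sialic acid exporter Slc17a5 under NAC (0.70 ± 0.13, adjusted p = 6.6e-04, up to 0.014).

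Of 15 genes of enzyme delivery, 3 were called higher under PQ (20.0%) and 4 under NAC (26.7%). The 3 became 1 without PQ replicate 1, and the 4 became 2 without NAC replicate 1 or control replicate 1 and 1 without NAC replicate 2. Igf2r, the large mannose 6-phosphate receptor, read 16.2 and 15.2 FPKM in control, 23.2 and 21.6 under PQ and 13.96 and 15.03 under NAC (PQ log2 0.48 ± 0.09, adjusted p = 0.0014, up to 0.033). Under NAC the largest changes were in Nagpa (1.09 ± 0.22, adjusted p = 0.0016, up to 0.020) and Gnptg (0.74 ± 0.16, adjusted p = 0.0030, lost without NAC replicate 2 at 0.051), which both help to make the mannose 6-phosphate tag. Nagpa read 2.08 and 1.90 FPKM in control, 3.13 and 2.31 under PQ and 4.52 and 4.18 under NAC. The adaptor subunit Ap3d1 rose under PQ (0.44 ± 0.10, adjusted p = 0.0057, lost without PQ replicate 1 at 0.17) and NAC (0.33 ± 0.10, adjusted p = 0.035), the latter lost without NAC replicate 1 (0.10), NAC replicate 2 (0.15), control replicate 1 (0.076) or control replicate 2 (0.064), and with DESeq2 (0.057) or limma (0.059 and 0.057). Vps29 of the retromer rose under PQ (0.35 ± 0.10, adjusted p = 0.019), lost without PQ replicate 1 (0.066), PQ replicate 2 (0.14) or control replicate 2 (0.097).

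**Figure D5:**
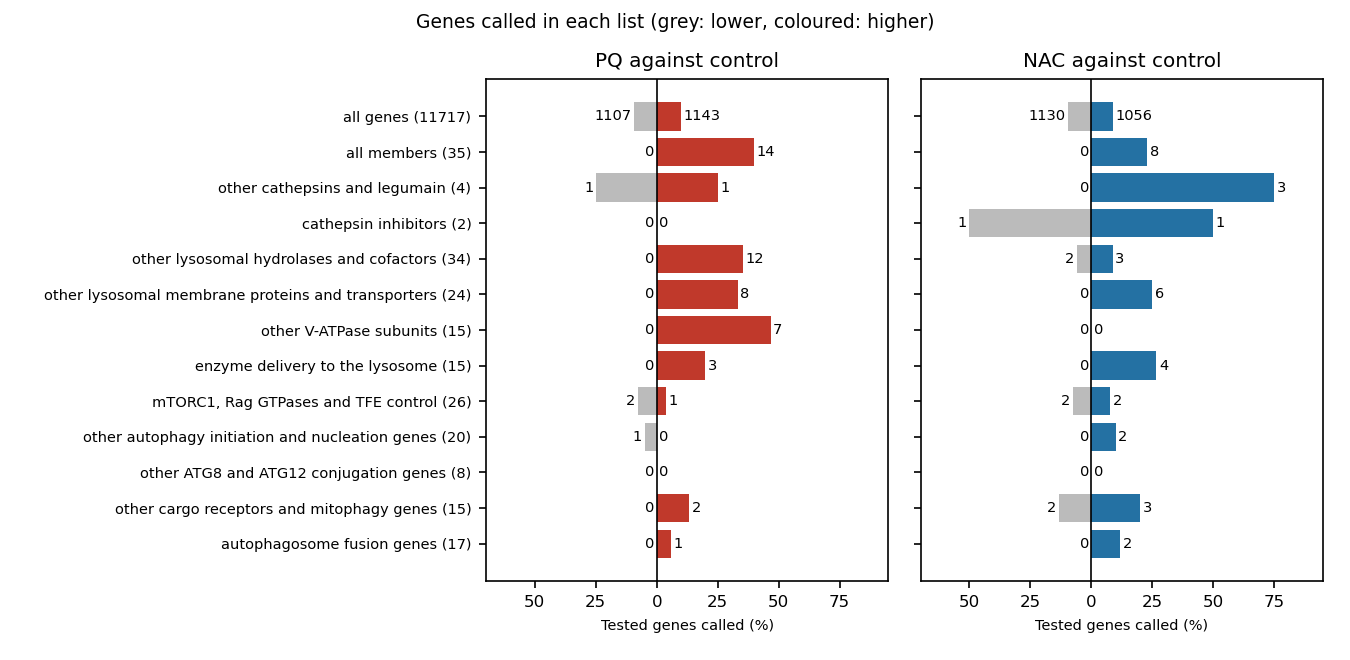
Share of tested genes (%) called higher (coloured, to the right) and lower (grey, to the left) in each list, PQ against control on the left panel and NAC against control on the right, with the number of genes called beside each bar and the number tested in brackets. The members have 14 and 8 called higher, the other V-ATPase subunits 7 and 0.

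Among 26 tested genes of mTORC1, its Rag GTPases and TFE control, 1 was called higher (3.8%) and 2 lower (7.7%) under PQ, and 2 higher and 2 lower under NAC (7.7% each). Under PQ the higher count became 0 without either PQ library or control replicate 2, and the lower count 0 without PQ replicate 1 and 1 without PQ replicate 2 or control replicate 1. Under NAC the higher count became 0 without NAC replicate 1, 1 without NAC replicate 2 and 7 without control replicate 2. The 2 lower genes were the same in both, Ddit4 and Sesn2, inhibitors of mTORC1 that are induced by stress. Ddit4 read 96.1 and 109 FPKM in control, 65.3 and 77.1 under PQ and 31.2 and 42.3 under NAC. The order control, PQ, NAC held without overlap. It fell under NAC (log2 -1.53 ± 0.13, adjusted p = 1.7e-07, up to 4.0e-04) and less under PQ (-0.55 ± 0.12, adjusted p = 0.0040, lost without PQ replicate 1 at 0.10). Sesn2 read 20.0 and 13.96, 13.0 and 11.4, and 6.17 and 7.56 FPKM. Its fall under NAC (-1.35 ± 0.16, adjusted p = 7.9e-06) held in all alternatives with adjusted p up to 0.0020, whereas that under PQ (-0.50 ± 0.15, adjusted p = 0.028) ended without PQ replicate 1 (0.079), PQ replicate 2 (0.16) or control replicate 1 (0.41), and with DESeq2 (0.056) or limma (0.12). The GTPase genes Rragc under PQ (0.35 ± 0.10, adjusted p = 0.026) and Rragb under NAC (0.64 ± 0.15, adjusted p = 0.0063) rose. The first call was lost without PQ replicate 1 (0.17), PQ replicate 2 (0.086) or control replicate 2 (0.15), and the second without NAC replicate 1 (0.050).

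Mitophagy genes, which mark mitochondria for autophagy, showed their largest differences under NAC. Pink1, the kinase that marks damaged mitochondria, read 14.7 and 17.0 FPKM in control, 21.2 and 21.0 under PQ and 34.8 and 34.5 under NAC. Its NAC rise was 2.11-fold (log2 1.08 ± 0.11, adjusted p = 9.2e-07, up to 2.9e-04), and its PQ rise 1.31-fold (0.39 ± 0.11, adjusted p = 0.018), lost without PQ replicate 1 (0.10), PQ replicate 2 (0.089) or control replicate 1 (0.14). Bnip3, a receptor on mitochondria that is induced by hypoxia, read 459 and 434 FPKM in control, 353 and 446 under PQ and 192 and 246 under NAC. Control and PQ overlapped, and NAC lay below both. Under NAC it fell by a log2 value of -1.07 ± 0.12 (adjusted p = 4.2e-06, up to 0.0017) and its relative Bnip3l by -0.49 ± 0.10 (adjusted p = 0.0020, up to 0.040). Calcoco1, a receptor for the endoplasmic reticulum, rose under PQ (0.52 ± 0.10, adjusted p = 0.0013, up to 0.027) and NAC (0.38 ± 0.10, adjusted p = 0.010, lost without NAC replicate 2 at 0.11). Of 15 tested genes of this list, 2 were called higher under PQ (13.3%), and 3 higher (20.0%) and 2 lower (13.3%) under NAC. The PQ count became 1 without either PQ library or control replicate 1, with 1 lower without PQ replicate 2. The higher NAC count became 1 without NAC replicate 2 and 5 without control replicate 1.

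Of 20 other initiation and nucleation genes, 1 was called lower under PQ (5.0%) and 2 higher under NAC (10.0%). Wdr45b was lower under PQ (log2 -0.35 ± 0.10, adjusted p = 0.023), lost without PQ replicate 1, PQ replicate 2 or control replicate 2 (0.15, 0.11 and 0.10) and with limma (0.052 and 0.053), and Wdr45 (0.71 ± 0.17, adjusted p = 0.0050, up to 0.045) and Ulk2 (0.39 ± 0.09, adjusted p = 0.0062, up to 0.042) higher under NAC. Wdr45 and Wdr45b encode lipid-binding relatives of Wipi1, and Ulk2 a relative of Ulk1. Of 8 other conjugation genes, edgeR called 0 in either comparison, also at an unadjusted p under 0.05, as did DESeq2 and limma, but 1 was called higher under NAC without control replicate 1. Of 17 tested fusion genes, 1 was called higher under PQ (5.9%), Vps18 of the tethering complexes (0.71 ± 0.16, adjusted p = 0.0050, lost without PQ replicate 1 at 0.16), and 2 under NAC (11.8%), Vps33a (0.40 ± 0.12, adjusted p = 0.023) and Osbpl1a (0.38 ± 0.11, adjusted p = 0.020). Vps33a lost its call without NAC replicate 1 (0.090), NAC replicate 2 (0.11) or control replicate 1 (0.14), with the preparation as a covariate (0.052) and with DESeq2 (0.054), and Osbpl1a without NAC replicate 1 (0.068), NAC replicate 2 (0.13) or control replicate 2 (0.12) and with DESeq2 (0.053). The fusion count under PQ became 0 without PQ replicate 1 and 2 without control replicate 1, and that under NAC 0 without either NAC library.

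Genes known to respond to the redox state were read as a reference for the treatments. Hmox1, a target of NRF2, read 37.2 and 40.3 FPKM in control, 89.1 and 71.3 under PQ and 27.0 and 31.5 under NAC, and Srxn1, another, 15.8 and 20.1, 30.3 and 30.5, and 12.7 and 14.2. Both were highest under PQ and lowest under NAC in every library. Nqo1 and Gclm, also NRF2 targets, were not called against control. Nqo1 read 1.38 and 2.01 FPKM in control, 2.50 and 4.16 under PQ and 2.19 and 1.44 under NAC, and Gclm 26.9 and 26.3, 31.6 and 32.1, and 25.3 and 22.9. In PQ against NAC both were called higher, Nqo1 at log2 0.88 ± 0.32 (adjusted p = 0.045, kept in 10 of 15 alternatives) and Gclm at 0.42 ± 0.10 (adjusted p = 0.0045, lost without NAC replicate 2 at 0.068). Cdkn1a, a target of p53, read 243 and 242 FPKM in control, 576 and 536 under PQ and 118 and 136 under NAC. Of the members, Ctsb, Gla and Mitf had the same order of groups without overlap as Hmox1, Srxn1, Gclm and Cdkn1a. NAC against control was called in edgeR for none of the 3 (adjusted p = 0.051, 0.15 and 0.16), and PQ against control was not called for Mitf. Lamp1, Sqstm1, Map1lc3b and Gabarapl1 were called higher than control under both treatments.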

How the data were processed

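Gene tables of 6 RNA-seq libraries, 2 each from mock-treated control, PQ and NAC, were used. The deposited expected count is the authors' estimate of the reads of a gene, the deposited FPKM is the authors' value per length and library size, and the deposited length is the average transcript length; 0 other columns per sample were left unused. Per the labels, preparation A was aligned with TopHat2 2.0.11 and Cufflinks 2.1.1 and preparation B with HISAT2 2.0.4, Bowtie2 2.2.5 and RSEM. The tables of both preparations nevertheless hold the same columns, expected counts among them, and of the genes found in both control libraries, 14479 of 14479 had equal transcript lists and 11106 of 11106 with a single transcript had equal lengths, so how the counts of preparation A were made is not known. Expected counts were rounded and tested with edgeR 4.0.16 (R 4.3.3; TMM, quasi-likelihood, all 6 libraries, no covariates) for every gene whose FPKM averaged 1 or more; p-values were adjusted by Benjamini and Hochberg's method and called under 0.05. SE values are the log2 fold change over the root of the F statistic. The 15 alternatives were DESeq2 size factors, DESeq2 1.42.0, no filter, filterByExpr, the labelled preparation as a covariate, the library set as a block, only the 4 libraries compared, limma 3.58.1 on log2(FPKM + 1) and log2(FPKM + 0.1), and leaving out each of the 6 libraries. Where a group was left with 1 library, it was assumed to vary like the others. All 36 members were named. Of each other list, called genes were named, at most the 3 with the largest absolute log2 fold change per treatment, or all in lists of under 10 genes, and of the markers the highest and lowest of each list, Cdkn2a and the treatment reference genes. Sox2, Prom1, Gfap, Aqp4, Slc1a2, Aldh1l1, Tubb3, Acta2, Cst6 and the further microglial markers were named after their values were seen. Of the genes this rule names, 1 is not reported here. Members and lists were chosen with earlier results of these data known. Of the listed symbols, 1 was not in the gene table. On simulated counts of PQ against control with 2-fold changes in a set of the 11717 tested genes, edgeR called 92.5% of the changed and 0.0868% of the unchanged genes. The simulation held no shift between preparations and no change smaller than 2-fold. Called members rose at most 1.77-fold under PQ, so the simulation does not tell how many changes of their size would be called.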

Additional observations from a re-analysis of the deposited data

How the results depend on the processing

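No call of a member turned its direction under any of the 15 alternatives. Of 1575 values of single members over the alternatives, 1462 kept their side of the threshold, 103 lost a call and 10 gained one. Leaving out a library gave 454 to 1114 genes higher and 412 to 1092 lower for PQ against control, 633 to 1009 higher and 653 to 1117 lower for NAC against control, and 1229 to 2127 higher and 1114 to 2080 lower for PQ against NAC. Members called higher then numbered 4 to 14, 2 to 7 and 5 to 10, and members lower in PQ against NAC 0 to 1. With at least a 2-fold change, 142 genes were higher and 68 lower under PQ, 149 and 175 under NAC, and 379 and 199 in PQ against NAC, with 0 members called in any. At an adjusted p under 0.01, 8 members were higher under PQ, 2 under NAC, and 0 lower in PQ against NAC. The shares of all genes at 0.01 are not given here, so these member counts stand without a reference. limma on log2(FPKM + 1) gave 725 genes lower under PQ and 737 under NAC. Members higher under NAC numbered 5 with DESeq2, 4 with the preparation as a covariate and 4 with the library set as a block, and the member lower in PQ against NAC was called by 0 of these 3. For these settings too, the shares of all genes are not given. The cause was not tested. Of 45 medians of members over the alternatives, 8 moved, and of 660 counts and medians of other lists, 83 moved. The library sets were taken from library numbers and not from a stated pairing, with control replicate 1, PQ replicate 1 and NAC replicate 2 in one and the rest in the other. Deviations from the group mean of libraries of the same set correlated at -0.04 for control and PQ, -0.07 for control and NAC and 0.06 for PQ and NAC. Mitf, Ctsf and Ctsz were read at the lowest levels of the members.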
